A study of Mus musculus with 18 samples.

Results

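A set of 10 genes tied to wolframin were followed across 18 arrays of mouse hypothalamus: those for its reported protein partners Cisd2, Atp1b1, Smurf1, Ncs1 and Vdac1, for the calcium channels and pumps Itpr1, Itpr3, Atp2a2 and Atp2a3, and for the transcription factor Neurod1. They were chosen by name. Each is represented by the brightest probeset that the platform annotation pairs with that gene and no other, and 9 of the 10 had such a probeset, among 19937 genes measured in this way. Itpr1 was not analysed here. Every one of the 9 had a single probeset.

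The study profiled hypothalami of wild-type mice and of mice mutant for Wfs1, dissected under a microscope and frozen, on a background that the sample labels call 129SV and the series text 129S6. The labels name no treatment. The sources used here give no ages, no sexes and no description of the Wfs1 allele. Each array carries a pair of genotype labels that need not match, the ending of its title (10 ko, 8 wt) and its genotype field (9 KO, 9 WT), so groups are written with the ending first: 5 ko/KO, 5 ko/WT, 4 wt/KO and 4 wt/WT arrays. Neither label is taken as the true genotype, and arrays within a group are numbered only to name them.

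Wolframin, the product of Wfs1, is a glycoprotein of the endoplasmic reticulum membrane, and its loss causes Wolfram syndrome, with diabetes mellitus, diabetes insipidus and degeneration of the optic nerve. The endoplasmic reticulum is the cell's main calcium store: SERCA pumps fill it, inositol trisphosphate receptors empty it, and at contact sites with mitochondria the released calcium crosses the outer mitochondrial membrane through VDAC channels. Wolframin has been placed among these proteins, and the second Wolfram syndrome gene, CISD2, acts in the same compartment.

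In these hypothalami 8 of the 9 genes varied less between arrays than the median gene and 1, Neurod1, was among the most variable genes on the array. The standard deviation (SD) over the 18 arrays, on the log2 scale of the deposited values, was 0.048 for Cisd2, 0.050 for Vdac1, 0.064 for Ncs1, 0.068 for Atp1b1, 0.072 for Atp2a2, 0.090 for Itpr3, 0.093 for Smurf1 and 0.11 for Atp2a3. The median SD over all 19937 genes was 0.133, with quartiles at 0.103 and 0.173. Only 0.151% of genes had a smaller SD than Cisd2 and 0.206% a smaller one than Vdac1, against 32.6% for Atp2a3. For Neurod1 the SD was 0.489, and 28 of the 19937 genes (0.140%) varied as much or more. None of the 9 genes differed between arrays labelled mutant and wild type after adjustment, no pair of them was correlated after adjustment, and none followed Wfs1 after adjustment.

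**Figure D1:**
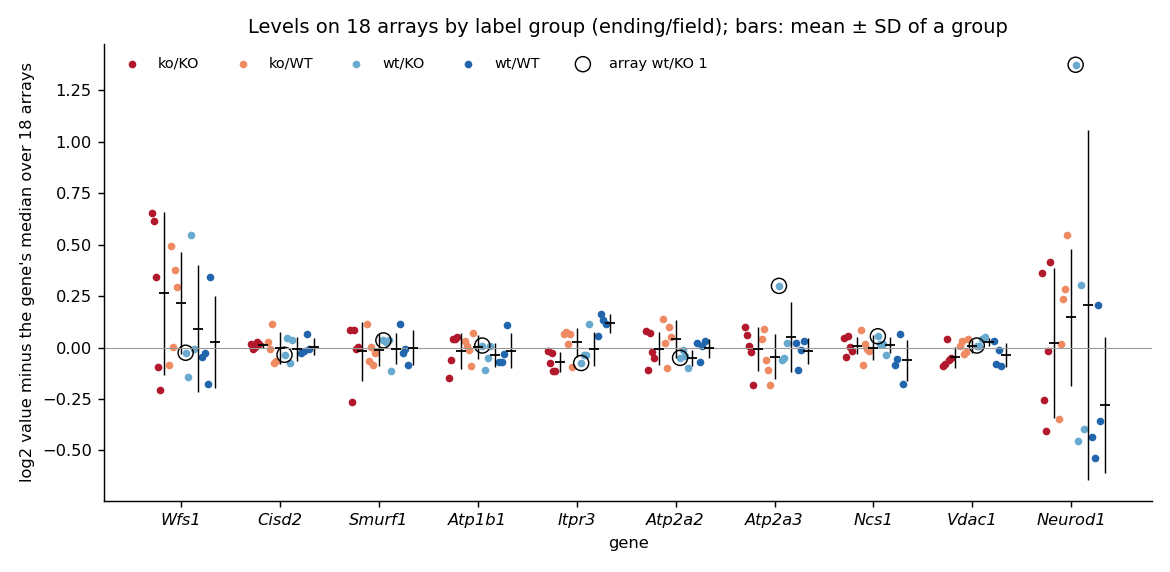
Levels of Wfs1 and the 9 measured genes on 18 arrays, as log2 value minus the gene's own median, grouped by label (ending/field); points are arrays, horizontal ticks group means and vertical bars 1 SD on either side, and circles mark the array wt/KO 1. Cisd2, with an SD of 0.048, forms a flat band, while Neurod1, with an SD of 0.489, spreads over all 4 groups and is highest, at 8.36, on wt/KO 1.

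The tissue label was checked on marker genes. Of 18 hypothalamic markers 17 were measured, and 16 of these, among them Avp, Oxt, Pmch and Hcrt, lay above the median of all probesets, as did 12 of 12 general neuronal markers. Array medians ran from 7.10 to 7.19 and array SDs from 1.93 to 2.04, and the table holds no detection calls. The probesets of Cisd2, Smurf1, Atp1b1, Atp2a2, Ncs1 and Vdac1 lay above their array's median on all 18 arrays, that of Atp2a3 on 15, that of Neurod1 on 8 and that of Itpr3 on 3. Some arrays stood apart in markers of other tissue. On wt/KO 1 the mean of 10 cerebellar markers was 8.62, against 7.60 to 7.83 on the other 17 arrays. On wt/WT 3 the mean of 12 choroid plexus markers, among them Ttr and Kl, was 7.57, against at most 7.06 elsewhere. On wt/KO 2 the mean of 5 blood markers was 6.80, against at most 6.52 elsewhere. That mean rests largely on Alas2, named after its values were seen, at 9.08. The other blood markers were at most 7.21 on any array, and 1 of the 5 lay above the median of all probesets. Results that rest on such an array are given with and without it.

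Wfs1 itself, the altered gene, went with neither label. Its mean was 0.18 higher with the ending ko than with the ending wt (exact permutation test, two-sided, p = 0.204), 0.056 higher with the field KO (exact permutation p = 0.697) and 0.24 higher on the ko/KO arrays than on wt/WT (p = 0.333 by exact permutation). Each of these is opposite to a loss of the transcript, and without ko/KO 1 the difference by field became -0.0029. The position of the probeset within Wfs1 is unknown here, and one that reads outside the mutated stretch would not check the labels. Every difference below is therefore one between arrays labelled in that way. Each title has a pair of numbers of its own, whose meaning is not stated. In the second number all titles ending in ko are lower than all those ending in wt. The ending and whatever that second number records therefore cannot be told apart. The first number is interleaved between the endings. The labels do not state outright that arrays are from different animals, and p-values reflect the spread among arrays alone, which may in part be technical.

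Differences were fitted with limma over all 19937 genes, with Benjamini-Hochberg adjustment and a threshold of 0.05. It called 0 genes by the ending, by the field or where both labels agree (0.0% of genes in each), and so 0 of the 9. At an unadjusted p below 0.05 it counted 923 genes (4.63%) by the ending, with 0 of the 9 among them, 1386 (6.95%) by the field, with 1 of the 9, and 2218 (11.1%) on the 5 ko/KO and 4 wt/WT arrays, again with 1 of the 9. That gene was Itpr3 both times. The interaction of ending and field called 0 genes (0.0%) after adjustment and 1033 (5.18%) at an unadjusted p below 0.05, with 0 of the 9 in either count. The comparisons share arrays and are not independent of one another. By the ending 5 of the 9 were higher and 4 lower with the mutant label, with a median absolute difference of 0.029 against 0.048 over all genes. By the field 4 were higher and 5 lower, and the median absolute difference was 0.039 against 0.051. Where the labels agree it was 4 and 5, and 0.012 against 0.091.

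**Figure D2:**
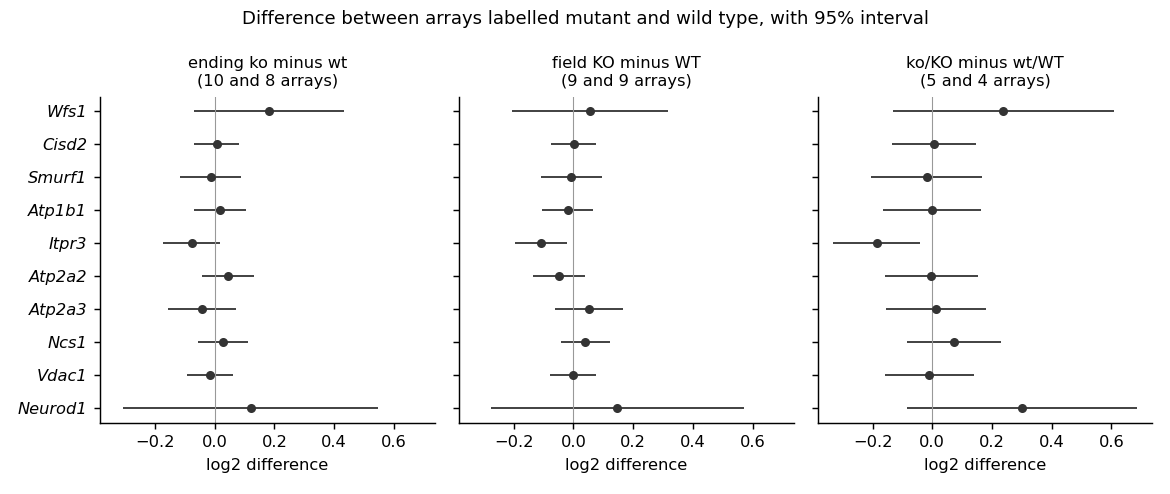
Log2 difference of Wfs1 and the 9 measured genes between arrays labelled mutant and wild type by the title ending (left), the genotype field (middle) and on the arrays whose labels agree (right); points are limma estimates and lines 95% confidence intervals. The interval of Itpr3 leaves out 0 by the field (-0.195 to -0.020) and where the labels agree (-0.333 to -0.040), and the longest intervals among the 9 are those of Neurod1.

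Among the partners, Cisd2 encodes an iron-sulfur protein of the endoplasmic reticulum and outer mitochondrial membranes, mutated in the second form of Wolfram syndrome. Its values were 8.85, 8.83, 8.84, 8.86 and 8.85 on the ko/KO arrays, 8.86, 8.83, 8.95, 8.76 and 8.77 on ko/WT, 8.80, 8.88, 8.76 and 8.87 on wt/KO, and 8.81, 8.82, 8.90 and 8.83 on wt/WT. The 4 groups overlapped, and the 5 ko/KO arrays lay within the range of the wt/WT arrays. The difference was 0.0063 by the ending (SE 0.037, n = 10 and 8, 95% interval -0.070 to 0.082), 0.0011 by the field (SE 0.036, interval -0.074 to 0.077) and 0.0060 where the labels agree (SE 0.066, interval -0.136 to 0.148). An increase of Cisd2 by more than 0.082 on the log2 scale therefore lies outside the interval by the ending, and one by more than 0.077 outside that by the field. Quantile normalization turned the 3 differences to -0.018, -0.025 and -0.048, each still smaller than its SE.

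The promoter of Cisd2 is shown because it belongs to the gene with the narrowest spread of the 9. It is the RefSeq sequence of the 250 bases before the annotated start, at chr3:135423434-135423683 on the minus strand of GRCm38.p6, with a CCAAT box 36 bases and a GC box 10 bases before the start in capitals.
Cisd2: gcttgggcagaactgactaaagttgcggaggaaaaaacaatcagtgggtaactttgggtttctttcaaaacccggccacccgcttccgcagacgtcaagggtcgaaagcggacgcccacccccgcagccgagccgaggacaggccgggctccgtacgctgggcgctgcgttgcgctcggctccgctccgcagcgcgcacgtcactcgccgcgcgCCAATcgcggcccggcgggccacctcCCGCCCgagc
The letters searched, on both strands, were CCAAT, the GC box GGGCGG, the NeuroD E-box CAGATG, the cyclic AMP response element TGACGTCA, the unfolded protein response element TGACGTGG and, by name, the endoplasmic reticulum stress elements ERSE and ERSE-II. The table has 32851 promoters of this length, and 33.8% of them hold a CCAAT box, 32.7% a GC box, 14.4% the E-box, 1.55% the cyclic AMP element, 0.563% the unfolded protein response element, 0.113% ERSE and 0.0304% ERSE-II. None of the last 4 was found in the windows of the 8 listed genes that matched the table. A match is a description of letters and not of a bound site.

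Smurf1 encodes an E3 ubiquitin ligase that marks wolframin for degradation. It read 8.59, 8.24, 8.59, 8.50 and 8.51 on ko/KO, 8.62, 8.44, 8.51, 8.42 and 8.48 on ko/WT, 8.54, 8.53, 8.54 and 8.39 on wt/KO, and 8.62, 8.48, 8.50 and 8.42 on wt/WT. All 4 groups overlapped, and the lowest array of the series, ko/KO 2, was 0.15 below the next. The difference was -0.013 by the ending (SE 0.049), -0.0067 by the field (SE 0.049) and -0.019 where the labels agree (SE 0.087). Without ko/KO 2 these became 0.015, 0.025 and 0.043, so their sign rests on that array.

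Atp1b1 encodes the beta 1 subunit of the sodium-potassium pump, which has been reported to bind wolframin in the endoplasmic reticulum. Its values were 12.35, 12.44, 12.54, 12.54 and 12.55 on ko/KO, 12.53, 12.51, 12.49, 12.41 and 12.57 on ko/WT, 12.51, 12.39, 12.45 and 12.51 on wt/KO, and 12.43, 12.43, 12.47 and 12.61 on wt/WT. The lowest and the highest array of the series, ko/KO 1 and wt/WT 4, both have labels that agree, and the groups overlapped. The differences were 0.018 (SE 0.042) by the ending, -0.019 (SE 0.041) by the field and -0.0010 (SE 0.077) where the labels agree. Atp1b1 ran against the blood list (r = -0.508, permutation p = 0.0303, adjusted p = 0.342, Spearman rho = -0.624). Without the 2 arrays farthest from the median of Atp1b1 r was -0.67, and without wt/KO 2 it was -0.396.

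The inositol trisphosphate receptor Itpr3, a channel that releases calcium from the endoplasmic reticulum, had the largest differences relative to their errors among the 9. It read 7.06, 7.0, 7.05, 6.96 and 6.96 on the ko/KO arrays and 7.13, 7.24, 7.21 and 7.19 on the wt/WT arrays. These groups did not overlap, as was the case for 563 of the 19937 genes (2.82%), and Itpr3 was the only one of the 9 for which this held. On the arrays whose labels conflict it read 7.14, 7.15, 7.09, 7.14 and 6.98 on ko/WT and 7.0, 7.04, 7.04 and 7.19 on wt/KO. Those 2 groups overlapped each other and both agreeing groups.

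By the ending the difference of Itpr3, mutant label minus wild-type label, was -0.077 (SE 0.045, n = 10 and 8, limma adjusted p = 0.884). By the field the difference was -0.11 (SE 0.042, n = 9 and 9, limma adjusted p = 0.694), and 2.37% of all genes had an unadjusted p as small. On the arrays whose labels agree it was -0.19 (SE 0.068, n = 5 and 4, limma adjusted p = 0.397), where 4.11% of genes did. None passed the threshold. The difference stayed below 0 under every setting in which it was tested and without any single array, from -0.096 to -0.061 by the ending, from -0.128 to -0.095 by the field and from -0.207 to -0.171 where the labels agree. Itpr3 was among the dimmest 40% of genes, so the setting that drops these did not test it. The effect of the ending did not differ detectably between the fields (interaction 0.031, SE 0.082, 95% interval -0.139 to 0.201).

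Itpr3 also moved with array-wide measures. It shared 49.7% of its variance with the first principal component over all genes, which held 29.0% of all variance, and 26.9% of all genes had an absolute Pearson r of at least 0.5 with it. With the SD of all values on an array, a relation chosen after seeing the data and computed with 9 others, Itpr3 had r = -0.551 (permutation p = 0.0164, adjusted p = 0.0547; Spearman rho = -0.661, adjusted permutation p = 0.0177). Without the 2 arrays farthest from the median array SD, r was -0.670. For marker lists and pairs of the set, the 2 farthest arrays are instead those farthest from the median of the gene named first. For Itpr3 with marker lists these were wt/WT 3 and wt/WT 2. Among the marker lists Itpr3 followed the striatal list most closely (r = 0.662, permutation p = 0.00290, rho = 0.722, r = 0.724 without the 2 farthest arrays), then the pituitary list (r = 0.655, permutation p = 0.00361, rho = 0.696, r = 0.599 without the 2 farthest), each with an adjusted p of 0.133. The pituitary relation fell to 0.061 once the first principal component was removed, whereas the striatal one was 0.642. The striatal list mean ran from 8.18 to 8.30 on ko/KO, 8.19 to 8.43 on ko/WT, 8.22 to 8.36 on wt/KO and 8.25 to 8.34 on wt/WT, with 6 of 8 markers measured, among them Drd1 and Drd2. The pituitary list, with 10 of 12 measured, ran from 6.30 to 6.63 on ko/KO, 6.28 to 6.53 on ko/WT, 6.27 to 6.55 on wt/KO and 6.47 to 6.60 on wt/WT. Of the 5 ko/KO arrays all but ko/KO 2 thus lay below the 4 wt/WT arrays, and 4 of its 10 markers lay above the median of all probesets, with Gh at 6.39 and Prl at 5.34 on average. With the astrocyte list Itpr3 had r = -0.527 (permutation p = 0.0243, adjusted p = 0.318, rho = -0.612). This was -0.401 without the 2 farthest arrays, -0.734 without ko/KO 2 and 0.318 once the first principal component was removed. The astrocyte list mean ran from 9.82 to 10.08 on ko/KO, 9.91 to 10.02 on ko/WT, 9.93 to 10.03 on wt/KO and 9.78 to 9.96 on wt/WT. Itpr3 had r = 0.506 with the choroid plexus list (permutation p = 0.0153, adjusted p = 0.220, rho = 0.614, r = 0.374 without the 2 farthest arrays, 0.217 once the first principal component was removed). All 12 of its markers were measured, 3 of them above the median of all probesets, and its mean ran from 6.68 to 6.87 on ko/KO, 6.72 to 6.82 on ko/WT, 6.58 to 6.75 on wt/KO and 6.75 to 7.57 on wt/WT. Without wt/WT 3 the Itpr3 difference was -0.066 by the ending, -0.099 by the field and -0.18 where the labels agree. The part of these markers and of the array SD in the Itpr3 differences was not tested. As the tissue is mixed, fewer cells of a type and less RNA per cell cannot be told apart.

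The SERCA pumps Atp2a2 and Atp2a3 return calcium to the endoplasmic reticulum. Atp2a2, the form expressed in most cells and the main neuronal one, read 12.58, 12.39, 12.57, 12.48 and 12.45 on ko/KO, 12.64, 12.52, 12.40, 12.60 and 12.55 on ko/WT, 12.45, 12.49, 12.46 and 12.40 on wt/KO, and 12.52, 12.43, 12.51 and 12.53 on wt/WT. The ko/WT group held both the highest array and 1 of the 3 lowest, and all groups overlapped. Its differences were 0.044 by the ending (SE 0.042), -0.048 by the field (SE 0.041) and -0.0035 where the labels agree (SE 0.072), that is, of opposite sign for the 2 labels and each about its own SE or less. Atp2a2 followed the endothelial list (r = 0.644, permutation p = 0.00324, adjusted p = 0.133, rho = 0.676, r = 0.581 without the 2 farthest arrays) and the thalamic list (r = 0.585, adjusted permutation p = 0.173, rho = 0.614, r = 0.685 without the 2 farthest), and ran against the hypothalamic list (r = -0.595, adjusted permutation p = 0.171, rho = -0.639, r = -0.598 without the 2 farthest). None of these passed the threshold.

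Atp2a3, the pump form best known from blood cells, endothelium and Purkinje neurons, read 7.38, 7.34, 7.29, 7.26 and 7.10 on ko/KO, 7.32, 7.37, 7.22, 7.17 and 7.10 on ko/WT, 7.58, 7.22, 7.23 and 7.30 on wt/KO, and 7.30, 7.17, 7.27 and 7.31 on wt/WT. A single array, wt/KO 1 at 7.58, stood 0.20 above all others, and the remaining values of the 4 groups overlapped. The differences were -0.043 by the ending (SE 0.055), 0.052 by the field (SE 0.055) and 0.012 where the labels agree (SE 0.078). Without wt/KO 1 the first became -0.0021 and the second 0.017, and the SD of Atp2a3 went from 0.11 to 0.085.

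Ncs1, a calcium sensor of neurons that interacts with wolframin, read 10.98, 10.89, 10.99, 10.94 and 10.92 on ko/KO, 11.02, 10.85, 10.95, 10.93 and 10.92 on ko/WT, 10.99, 10.95, 10.95 and 10.90 on wt/KO, and 10.85, 10.88, 11 and 10.76 on wt/WT. The lowest array was wt/WT 4, while wt/WT 3 was second only to ko/WT 1, and all groups overlapped. Its differences were 0.029 by the ending (SE 0.040), 0.039 by the field (SE 0.040) and 0.072 where the labels agree (SE 0.073). Without wt/WT 4 these became 0.0076, 0.021 and 0.034, and the last was 0.11 without wt/WT 3. With the microglial list Ncs1 had r = 0.51 (permutation p = 0.0309, adjusted p = 0.342, rho = 0.697, r = 0.491 without the 2 farthest arrays). Vdac1, the channel of the outer mitochondrial membrane, read 10.86, 10.87, 10.99, 10.89 and 10.90 on ko/KO, 10.96, 10.98, 10.92, 10.93 and 10.99 on ko/WT, 10.96, 10.96, 10.99 and 11 on wt/KO, and 10.98, 10.87, 10.94 and 10.86 on wt/WT. The 4 wt/KO arrays were all at 10.96 or more, yet 5 arrays of the other groups reached that level as well. The differences of Vdac1 were -0.016 by the ending (SE 0.037), -0.0011 by the field (SE 0.037) and -0.011 where the labels agree (SE 0.070).

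Neurod1 encodes a basic helix-loop-helix transcription factor of differentiating neurons and pancreatic islet cells, which is abundant in granule neurons of the cerebellum. It read 7.35, 6.73, 6.58, 6.97 and 7.40 on ko/KO, 6.64, 7.0, 7.22, 7.27 and 7.53 on ko/WT, 8.36, 6.53, 7.29 and 6.59 on wt/KO, and 6.55, 6.45, 7.19 and 6.63 on wt/WT. From the lowest array, wt/WT 2, to the highest, wt/KO 1, this is a 3.76-fold range. High and low arrays occurred in every group, and without wt/KO 1 the SD was 0.366, still above that of 99.3% of genes. By the ending the difference was 0.12 (SE 0.21, limma adjusted p = 0.920), by the field 0.15 (SE 0.20, limma adjusted p = 0.849) and where the labels agree 0.30 (SE 0.18, n = 5 and 4, limma adjusted p = 0.521, 95% interval -0.085 to 0.687). Without wt/KO 1 the difference by ending became 0.32 and that by field -0.012. Other single arrays moved them as well: by ending the value was lowest, at 0.049, without wt/WT 2, and by field highest, at 0.22, without ko/WT 5. Where the labels agree it ran from 0.20 without ko/KO 5 to 0.46 without wt/WT 3.

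Neurod1 and Atp2a3 were both highest on wt/KO 1, the array with high cerebellar markers. Of the 10 markers 7 were higher there than on any other array, where 4.83% of all genes were (962 of 19937). Pcp2, a Purkinje cell gene, was at 7.31 against at most 6.92 elsewhere, and Car8, also of Purkinje cells, at 9.41 against at most 8.15. The largest gaps, named after their values were seen, were those of the granule cell genes Gabra6, at 8.19 against 4.83 to 5.47 elsewhere, and Cbln3, at 8.71 against at most 6.60. Zic1, Zic2 and Barhl2 lay within the range of the other arrays. The list mean ran from 7.66 to 7.83 on ko/KO, 7.71 to 7.77 on ko/WT, 7.62 to 8.62 on wt/KO and 7.60 to 7.82 on wt/WT.

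**Figure D3:**
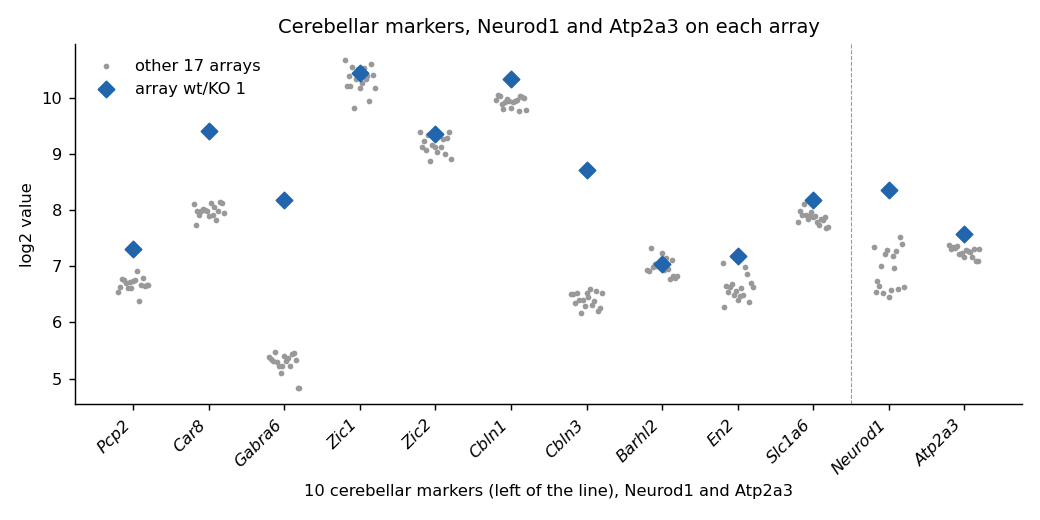
Log2 values of 10 cerebellar markers, Neurod1 and Atp2a3 on wt/KO 1 (diamonds) and on the other 17 arrays (grey points). Gabra6 and Cbln3 lie far above the other arrays on wt/KO 1. Neurod1, at 8.36 against at most 7.53, and Atp2a3, at 7.58 against at most 7.38, are also highest there, by smaller gaps.

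Over the 18 arrays Neurod1 had r = 0.730 with the cerebellar list (permutation p = 0.00480, adjusted p = 0.133, rho = 0.447, r = 0.370 without the 2 farthest arrays) and Atp2a3 r = 0.722 (permutation p = 0.00555, adjusted p = 0.133, rho = 0.545, r = 0.295 without the 2 farthest). Without wt/KO 1 these became 0.347 and 0.331, so both relations rest on that array. Between each other Neurod1 and Atp2a3 had r = 0.262 with wt/KO 1 and -0.386 without it. The Neurod1 values of the remaining 17 arrays, from 6.45 to 7.53, spread widely with cerebellar list means between 7.60 and 7.83. What part the source of these markers has in the level of either gene on wt/KO 1 was not tested.

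Neurod1 also ran against the pituitary list (r = -0.624, permutation p = 0.00552, adjusted p = 0.133, rho = -0.596) and the blood list (r = -0.634, permutation p = 0.00734, adjusted p = 0.151, rho = -0.519), and with the 2 farthest arrays left out these were -0.401 and -0.333. Once the first principal component was removed they were -0.082 and -0.520. With the astrocyte list Neurod1 had r = 0.501 (permutation p = 0.0355, adjusted p = 0.365, rho = 0.610). Without the 2 farthest arrays this was 0.604, without wt/KO 1 0.619, and once the first principal component was removed -0.266. Without 1 array at a time, wt/KO 2 among them, Neurod1 had r = -0.705 to -0.442 with the blood list. It shared 43.9% of its variance with the first principal component, and with the array SD it had r = 0.622 (permutation p = 0.00708, adjusted p = 0.0354 over the 10 relations; rho = 0.519, adjusted permutation p = 0.0731; r = 0.604 without the 2 farthest arrays and 0.520 without wt/KO 1). Neurod1 was thus higher on arrays with a wider distribution of values, on which Itpr3 was lower, and Ncs1 had r = 0.521 with the array SD (adjusted permutation p = 0.0719; rho = 0.572, adjusted permutation p = 0.0493; r = 0.543 without the 2 farthest arrays). What part the array SD has in the levels of these genes was not tested.

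The promoters of Neurod1 and Atp2a3 are shown because these 2 genes were high on the same array, and that of Wfs1 because the rest of the set was chosen around it. Each is the RefSeq sequence of the 250 bases before the start in GRCm38.p6: Neurod1 at chr2:79456637-79456886 on the minus strand, Atp2a3 at chr11:72960919-72961168 on the plus strand and Wfs1 at chr5:36988983-36989232 on the minus strand. Capitals mark GC boxes in all 3, and in Wfs1 also the NeuroD E-box 170 bases and a CCAAT box 93 bases before the start.
Neurod1: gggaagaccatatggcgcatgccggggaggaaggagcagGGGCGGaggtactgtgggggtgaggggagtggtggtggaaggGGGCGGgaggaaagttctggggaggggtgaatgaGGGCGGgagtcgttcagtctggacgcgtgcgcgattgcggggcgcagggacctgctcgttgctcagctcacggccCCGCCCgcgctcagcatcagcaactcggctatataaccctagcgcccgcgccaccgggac
Atp2a3: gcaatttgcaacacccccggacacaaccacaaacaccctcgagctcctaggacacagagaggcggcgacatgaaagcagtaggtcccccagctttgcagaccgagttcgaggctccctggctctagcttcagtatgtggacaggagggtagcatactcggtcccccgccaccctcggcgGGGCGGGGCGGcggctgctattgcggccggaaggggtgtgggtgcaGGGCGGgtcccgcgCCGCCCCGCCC
Wfs1: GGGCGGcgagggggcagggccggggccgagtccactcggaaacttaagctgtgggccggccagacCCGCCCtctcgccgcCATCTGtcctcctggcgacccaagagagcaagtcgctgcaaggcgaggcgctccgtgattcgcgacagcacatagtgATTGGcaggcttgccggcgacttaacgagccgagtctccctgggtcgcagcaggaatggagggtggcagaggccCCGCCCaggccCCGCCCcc
The windows of Neurod1 and Wfs1 hold 4 GC boxes each and that of Atp2a3 holds 5, of which 2 pairs overlap. Neither Neurod1 nor Atp2a3 has a CCAAT box or the E-box within these bases.

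Covariation among the 9 genes was weak. Of their 36 pairs 0 had an absolute Pearson r of at least 0.5 over the 18 arrays, against 15.7% of the 198732016 pairs of all genes, and the median absolute r was 0.118 against 0.260. The values ran from -0.468 to 0.487, with 23 positive and 13 negative. With the first principal component removed, 6.77% of all gene pairs and 0 of the 36 reached 0.5, and among the 6491 genes with an SD no larger than that of Atp2a3 11.3% of pairs did. Without wt/KO 1 it was 1 of 36 pairs against 16.0% of gene pairs.

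After adjustment 0 of the 36 pairs passed, the lowest adjusted p being 0.592, and 3 had an unadjusted permutation p below 0.05. The ligase gene Smurf1 and the pump gene Atp2a2 had r = 0.487 (permutation p = 0.0391, rho = 0.356), which became 0.342 without ko/KO 2, the array lowest in both, and 0.174 without the 2 farthest arrays. Smurf1 and the calcium sensor gene Ncs1 had r = 0.473 (permutation p = 0.0493, rho = 0.583), and 0.444 without the 2 farthest arrays. Itpr3 and Neurod1 had r = -0.468 (permutation p = 0.0479, rho = -0.475, r = -0.471 without the 2 farthest arrays), which became -0.0015 once the first principal component was removed. The SERCA genes Atp2a2 and Atp2a3 had r = -0.0057.

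**Figure D4:**
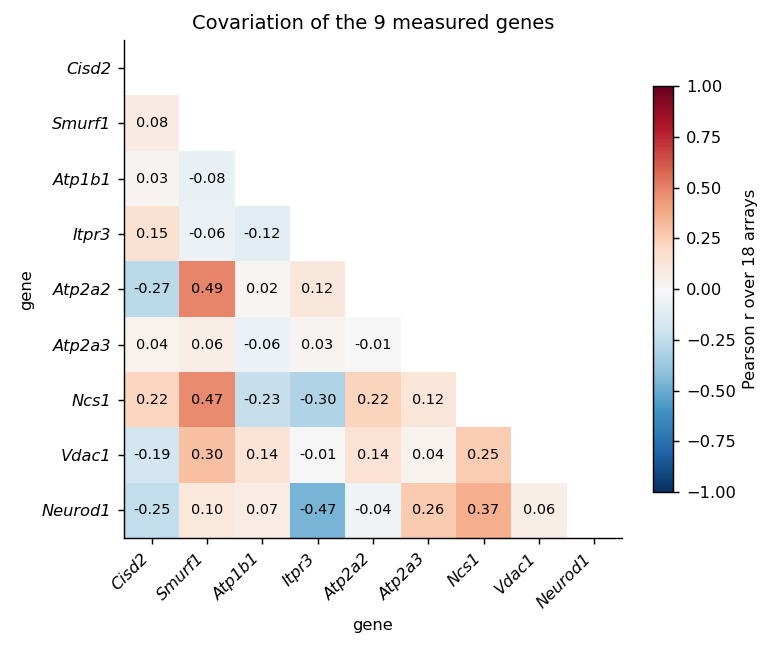
Pearson r of each of the 36 pairs of the 9 measured genes over 18 arrays, in colour and in figures (red positive, blue negative). The strongest cells are Smurf1 with Atp2a2 (0.487) and with Ncs1 (0.473) and Itpr3 with Neurod1 (-0.468), and most of the others are pale.

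The level of Wfs1 itself lay on either side of 8.2, with 10 arrays from 7.86 to 8.07 and 8 arrays from 8.36 to 8.72. These are not genotype groups: the lower side holds 4 arrays with the ending ko and 6 with wt, and 5 with the field KO and 5 with WT, and the upper side 6 and 2 by ending and 4 and 4 by field. The levels on each side are given as a description, with no test. For each of the 9 genes the ranges of both sides overlapped. Cisd2 ran from 8.80 to 8.95 with a median of 8.86 on the lower side and from 8.76 to 8.85 with a median of 8.83 on the upper. Neurod1 ran from 6.45 to 8.36 with a median of 6.81 on the lower side and from 6.58 to 7.53 with a median of 7.14 on the upper.

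The pump genes were split in the same loose way. Atp2a2 ran from 12.40 to 12.64 (median 12.47) below and from 12.39 to 12.60 (median 12.54) above 8.2, and Atp2a3 from 7.10 to 7.58 (median 7.27) below and from 7.10 to 7.38 (median 7.30) above. Itpr3 had medians of 7.11 and 7.06, within 6.96 to 7.24 and 6.98 to 7.19. Smurf1 had medians of 8.51 and 8.46, Atp1b1 of 12.50 and 12.48, Ncs1 of 10.95 and 10.93, and Vdac1 of 10.95 and 10.96, each lower side first. None of these pairs of medians differs by as much as the range of either side.

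Because Wfs1 falls into separate clusters, its relation to the 9 genes was computed within each side, 18 relations in all, and 0 passed after adjustment (lowest adjusted p = 0.638). On the 8 upper-side arrays Atp1b1 ran against Wfs1 (r = -0.760, exact permutation p = 0.0355, adjusted p = 0.638, rho = -0.814). On the 10 lower-side arrays r was -0.080. Without the 2 arrays farthest from the median Wfs1 level of the upper side, ko/KO 1 and ko/KO 2, r was -0.538, and leaving out 1 array at a time gave -0.930 to -0.626. Around label group means taken over all 18 arrays, from both sides, r was -0.347. Those means mix both Wfs1 clusters, so this value does not check the relation within label groups on the upper side. Atp2a3 had r = 0.650 on the upper side (exact permutation p = 0.0863, adjusted p = 0.777) and 0.415 on the lower. Cisd2 had r = 0.338 on the upper side and -0.091 on the lower, and Neurod1 had 0.092 and -0.047.

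**Figure D5:**
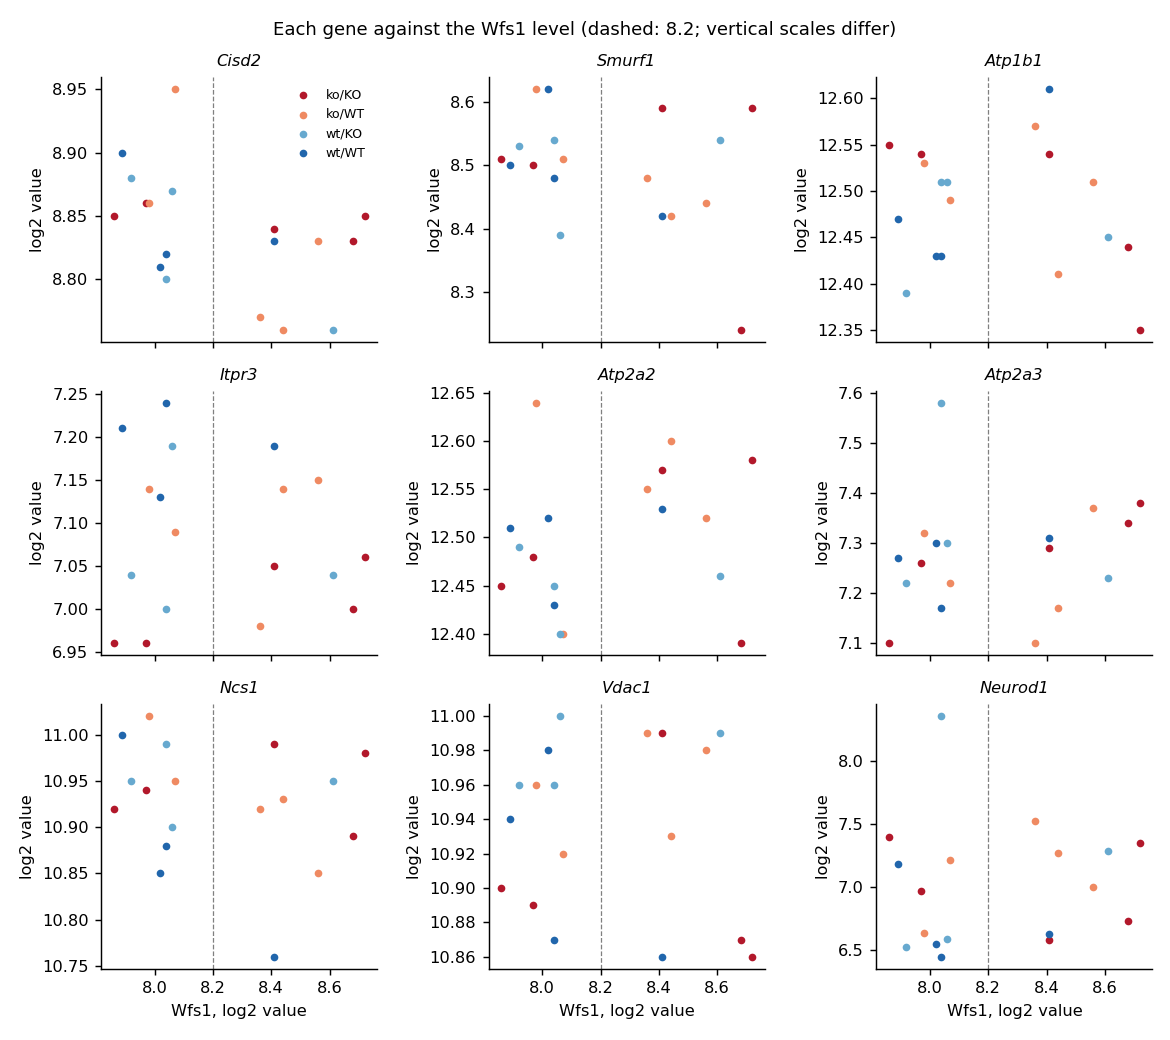
Log2 value of each of the 9 measured genes (vertical axes, which differ in scale) against the Wfs1 level of the same array, coloured by label group; the dashed line marks 8.2. On the upper side Atp1b1 lies between 12.35, on the array highest in Wfs1, and 12.61, and in every panel the values on both sides of the line overlap.

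The genes whose pattern over the 18 arrays was most like that of a member were ranked by Pearson r among genes brighter than the median gene. For Cisd2 they were Sox21 (r = 0.743), Timp2 (0.656) and Tmem121b (0.655), and for Atp1b1 Hk1 (0.760), Rbx1 (0.723) and Rnaseh1 (0.700). Smurf1 had Ric1 (0.881), Kdm3b (0.858) and Ap2a2 (0.854), and Itpr3 had Mir210 (0.852), Pld2 (0.851) and Krtap1-3 (0.848). Atp2a2 was followed by Dync1li2 (0.821), Grin2a (0.806) and Raver2 (0.804), and Atp2a3 by Dmwd (0.724), Prag1 (0.690) and Ebf4 (0.682). Ncs1 had Nrsn2 (0.837), Hsdl1 (0.828) and Alg10b (0.827), and Vdac1 had Akap1 (0.852), Coq6 (0.782) and Dhx38 (0.781). For Neurod1 they were Chn2 (0.834), Exog (0.818) and Ptcd2 (0.793), which without wt/KO 1 were 0.687, 0.858 and 0.673. No gene of the set was among the 3 most like another, but Itpr3, Atp2a3 and Neurod1 were too dim to be ranked and could not be named. How many genes reached an absolute r of 0.5 differed widely: 26.9% with Itpr3, 20.8% with Neurod1, 10.6% with Smurf1, 7.78% with Ncs1, 5.69% with Atp2a2, 3.48% with Vdac1, 2.64% with Atp2a3, 2.48% with Atp1b1 and 1.84% with Cisd2. With Wfs1 it was 3.31%.

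Around these genes, 97 others of the same pathways were listed and 87 measured, and limma called 0 of them by the ending, by the field or where the labels agree. By the ending 53 of 87 were higher with the mutant label (median 0.017, against 51.8% and 0.0030 over all genes), by the field 57 (median 0.020, against 47.2% and -0.0056) and where the labels agree 61 (median 0.050, against 49.5% and -0.0015). By the ending 4.63% of all genes had an unadjusted p below 0.05, with 1.87% of all genes also higher with the label ko. Of the 87 it was 2, both higher with ko. They were Mcu, the pore of the mitochondrial calcium uniporter (0.14, SE 0.052, limma adjusted p = 0.884), and Atf6, a sensor of the unfolded protein response that wolframin helps to degrade (0.11, SE 0.049, limma adjusted p = 0.884). By the field Mcu differed by -0.0022 and Atf6 by 0.044. By the field 6.95% of all genes had an unadjusted p below 0.05, with 2.49% of all genes also higher with the label KO. Of the 87 it was 5, all higher with KO. They are named here after their values were seen: the neuronal calcium sensors Hpcal4 (0.13, SE 0.044) and Hpcal1 (0.17, SE 0.063), the channel-interacting protein Kcnip2 (0.10, SE 0.046), Tmbim6, a calcium leak channel of the endoplasmic reticulum (0.12, SE 0.050), and Stim1, the sensor of store depletion (0.11, SE 0.049), each with a limma adjusted p of 0.694. By the ending these 5 differed by -0.019, -0.0095, -0.062, 0.041 and -0.011. Where the labels agree the count was 0 of 87, against 2218 of all 19937 genes (11.1%).

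Of 11 measured genes of calcium release 8 were higher by the ending and 4 by the field, with the receptor Itpr2 at 0.039 (SE 0.037) and the receptor-interacting protein Itpripl1 at -0.066 (SE 0.056) by the ending. Of 11 genes of calcium uptake and store refilling 6 were higher by either label. Among them the SERCA regulator Sln differed by -0.11 (SE 0.074) and the plasma membrane channel Orai2 by 0.12 (SE 0.11) by the ending, and Orai2 by -0.19 (SE 0.11) by the field. Of 13 calcium-binding and chaperone genes of the endoplasmic reticulum 5 were higher by the ending, 12 by the field (median 0.049) and 11 where the labels agree (median 0.072), with Casq2 at 0.086 (SE 0.064) and Sdf4 at -0.053 (SE 0.045) by the ending. Of 16 genes of contact sites between endoplasmic reticulum and mitochondria 13 were higher by the ending and 8 by the field, including Smdt1, a uniporter subunit, at 0.068 (SE 0.043) by the ending. For the 16 genes of wolframin turnover and targets these counts were 13 and 12, with the vesicle coat gene Sec24a at 0.087 (SE 0.051) by the ending. Of the 5 measured sodium pump genes other than Atp1b1, 1 was higher by the ending and 5 by the field, with Fxyd6 at -0.11 (SE 0.059) and Atp1b3 at 0.080 (SE 0.067) by the ending. Of 15 calcium sensors 7 were higher by the ending and 10 by the field, with the channel-interacting proteins Kcnip3 at 0.081 (SE 0.057) and Kcnip4 at 0.073 (SE 0.054) by the ending.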

How the data were processed

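Total RNA of 18 hypothalamus samples was extracted with Trizol and labelled with biotin for whole-transcript arrays, per the labels' protocols. The authors deposited log2 values, 1 per probeset and array; the scale was read from the values, which run from 1.11 to 14.54. RMA and MAS5 are named, without role or version, per the submitters' processing notes. RMA, where used, compresses small differences at low intensity. The sources used here give no scan dates or array model, so batches could not be examined.

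Of 34760 probesets 21640 had 1 gene symbol, 1321 had several and 11799 had none; 21553 matched RefSeq (GRCm38.p6), which changed 0 symbols. The brightest probeset stood for each of 19937 genes. Differences were fitted with limma 3.58.1 (R 4.3.3; lmFit, eBayes) without covariates, with Benjamini-Hochberg adjustment over all genes. Correlation p-values came from 100000 resamples, or exact enumeration under 10 arrays, adjusted within families of 36, 18, 144 and 10 relations. On simulated data limma called 48% of genes moved by 0.25 by the ending, 48% by the field and 8% on the agreeing arrays, and 98%, 92% and 52% at 0.5.

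The members, lists and tests were chosen with earlier results of these data known. The text names the members, Wfs1, the 3 genes most like each member, 2 genes per pathway list with the smallest p by the ending, and the first 2 genes of marker lists that move with a member; others are named as chosen after their values were seen. Alternatives were another normalization, probeset rule, filter, array weights and leaving out each array. The array SD relations, the gene pair background under other settings and the spread without wt/KO 1 were added after seeing the data.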

Additional observations from a re-analysis of the deposited data

Results flagged for a closer look

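A single gene of the set had arrays that stood apart within their label group by Dixon's criterion, in 2 of the 40 groups tested (the 9 genes and Wfs1, 4 label groups each), where chance gives about 1 in 20. Smurf1, the ubiquitin ligase gene, was at 8.24 on ko/KO 2, and the nearest other ko/KO array was at 8.50. It was at 8.39 on wt/KO 4, and the other 3 wt/KO arrays were at 8.53 and 8.54. Atp2a2 was also lowest on ko/KO 2, at 12.39. The 8.36 of Neurod1 and the 7.58 of Atp2a3 on wt/KO 1 did not meet this criterion: the gap to the next array over the range of the group was 0.585 and 0.778, against a critical value of 0.829. For no gene did the effect of the ending differ between the fields by limma's interaction test (0 of 19937 called, 1033 at an unadjusted p below 0.05). The widest interaction among the 9 was that of Neurod1, at -0.61 (SE 0.40, limma adjusted p = 0.927).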

How the results depend on the processing

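The counts of genes called (0 in each of the 4 fits), of correlated pairs (0) and of relations with Wfs1 (0) stayed at 0 under every alternative. No paired analysis was possible because the labels give no replicate numbers that label groups share. Array weights were not run for the Wfs1 permutation tests or the correlations, which have no such fit. Of the other settings 156 values kept direction and call, 17 turned and 3 counts moved. Part of the 156 could not turn: the measured members and Wfs1 have a single probeset each, so averaging probesets leaves their differences unchanged. The filter, which drops the dimmest 40% of genes, removed Itpr3 and Neurod1 and leaves the estimate of a gene it keeps unchanged. Of the values without 1 array 522 kept direction and call, 44 turned and 1 count moved. For values that turned or moved and whose cause no sentence names, the cause was not tested. Precision is limited by how few arrays there are, and the table has no detection calls to set signal against background.

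Differences that turned were all smaller than their SE. Quantile normalization gave Cisd2 -0.018 by ending, -0.025 by field and -0.048 on agreeing arrays. Centring on array medians gave Smurf1 0.011 and Vdac1 0.017 by field, and on agreeing arrays Atp1b1 0.030, Smurf1 0.012, Atp2a2 0.028 and Vdac1 0.021. Array weights gave Smurf1 0.015 by ending, Cisd2 -0.0067, Smurf1 0.026 and Vdac1 0.0089 by field, and on agreeing arrays Atp1b1 0.0055, Smurf1 0.032, Atp2a2 0.014 and Vdac1 0.0026.

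Marker list relations called rose from 0 to 1 with quantile normalization (Itpr3 with striatum, 0.781), to 2 with centring (Atp2a2 with endothelium, 0.719; Neurod1 with cerebellum, 0.769), to 1 after removing the first principal component (Neurod1 with cerebellum, 0.788), and ran from 0 to 2 without 1 array. The 2 came without ko/KO 2 (Itpr3 with pituitary, 0.889, and with astrocyte markers, -0.734). The relation of Neurod1 with cerebellum was 0.347 without wt/KO 1 on the deposited values. Its calls after centring and after removing the component include that array and were not repeated without it.

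Without 1 array, ranges that crossed 0 were -0.0029 to 0.10 for Wfs1 by field; by ending, -0.0060 to 0.016 for Cisd2 and -0.029 to 0.015 for Smurf1; by field, -0.0085 to 0.015 for Cisd2, -0.019 to 0.025 for Smurf1, -0.011 to 0.0083 for Vdac1 and -0.012 to 0.22 for Neurod1. On agreeing arrays they were -0.0040 to 0.026 for Cisd2, -0.047 to 0.043 for Smurf1, -0.033 to 0.012 for Vdac1, -0.019 to 0.041 for Atp1b1, -0.026 to 0.023 for Atp2a2 and -0.019 to 0.055 for Atp2a3.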
